A study of Mus musculus with 9 samples.

Results

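The calcineurin pathway is the target of cyclosporin A, and 10 of its genes were followed in 9 RNA sequencing libraries of mouse right ventricular myocardium. They were chosen by symbol from the deposited gene table, as 10 of 54532 genes: the calcineurin subunit genes Ppp3ca, Ppp3cb and Ppp3r1, the calcineurin inhibitor genes Rcan1, Rcan2 and Cabin1, and the transcription factor genes Nfatc1, Nfatc2, Nfatc3 and Nfatc4. CsA libraries came from mice with a surgical fistula that were injected with cyclosporin A, VO (volume overload) libraries from mice with the fistula surgery and no such injection named in the labels, and Sham libraries from sham-operated mice, with 3 libraries in each group. All were wild-type C57BL/6 mice given as postnatal day 7, the age at the operation under isoflurane. No group combined the sham operation with the drug, and the dose, the vehicle and the age at harvest are not given in the sources used here.

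Calcineurin is a phosphatase made of a catalytic A subunit and a regulatory B subunit, and it becomes active when calcium and calmodulin bind it. It removes phosphate from NFAT transcription factors, which then enter the nucleus and act there with partners such as GATA4, and in the heart this route is best known for driving hypertrophic growth. Cyclosporin A binds cyclophilins, and the complex blocks the phosphatase, so the drug acts on the enzyme and not directly on the transcripts measured here.

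Levels are given in FPKM, the fragments of a gene per kilobase of its length and scaled to library size, as the authors deposited them, and the values of single libraries are listed in the order of replicates 1 to 3. Between 12046288 and 15986747 fragments per library lay on genes. Nothing in the labels ties the libraries to separate mice, so a p-value reflects the variation among these samples alone, part of which may be technical. VO 3 stood apart from the other libraries: 11.0% of its fragments came from mitochondrially encoded genes, against 22.2% to 26.3% elsewhere, and 17003 genes were above 0 there, against 19619 to 20479 elsewhere. The atrial myosin gene Myl7 stood at 68.3 FPKM in CsA 3, 235.1 in Sham 1 and 269.7 in Sham 3, and between 0.959 and 13.2 FPKM in the other libraries. Sham 2 was the only library with the Y-linked Ddx3y above 0. The 6 genes listed as ventricular markers were abundant in every library, with summed levels of 13344 to 13937 FPKM in CsA, 9311 to 16349 in VO and 12643 to 16061 in Sham. Actc1 was the largest part of these sums, at 7084 to 8572 FPKM in CsA, 6492 to 9552 in VO and 7063 to 9507 in Sham. In tissue of mixed cells, fewer cells of a type and less RNA per cell cannot be told apart.

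Rcan1 is shown first by sequence because its transcript from an internal start is known, as background, to be a readout of calcineurin and NFAT activity. Whether the internal window printed here is the known responsive one was not tested. Start windows were taken from RefSeq (GRCm38.p6), each with 250 bases before and 50 after a start. Of the 10 genes, 8 matched, with 13 windows, and Ppp3ca and Nfatc1 did not. The windows below are on the minus strand, written 5′ to 3′, and capitals mark the NFAT core GGAAA or its reverse complement TTTCC. The upstream Rcan1 window lies at chr16:92466120-92466419 and the internal one at chr16:92400029-92400328, with 66091 bases between the 2 starts. The internal start lies in an intron of the transcripts that begin at the upstream start, which itself lies in the first intron of a further annotated transcript and short of the gene's 5′ end at position 92470867.
Rcan1 upstream start: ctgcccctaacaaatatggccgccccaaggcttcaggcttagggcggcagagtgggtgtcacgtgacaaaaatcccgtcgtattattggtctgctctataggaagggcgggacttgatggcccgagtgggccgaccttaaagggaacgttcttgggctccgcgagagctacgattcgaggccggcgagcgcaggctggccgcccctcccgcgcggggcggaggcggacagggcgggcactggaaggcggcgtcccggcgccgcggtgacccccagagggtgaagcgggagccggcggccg
Rcan1 internal start: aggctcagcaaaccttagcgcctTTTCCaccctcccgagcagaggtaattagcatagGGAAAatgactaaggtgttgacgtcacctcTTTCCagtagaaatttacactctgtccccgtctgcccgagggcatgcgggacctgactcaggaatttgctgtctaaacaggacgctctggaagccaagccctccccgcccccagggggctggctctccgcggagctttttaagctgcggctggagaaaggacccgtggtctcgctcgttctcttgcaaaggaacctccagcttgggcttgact
The internal window held 3 cores, 1 as GGAAA and 2 as TTTCC, and the upstream window held 0. Of 32851 windows of all genes, 9.42% held at least 3 cores and 61.3% held at least 1, so a match of this short motif is a description of letters and not a binding site. The deposited value of Rcan1 is for the whole gene, so the use of each start was not measured.

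The group means kept 1 order in all 3 groups, with Rcan2 highest, followed by Ppp3r1, Rcan1, Ppp3cb, Ppp3ca, Nfatc3, Nfatc1, Cabin1, Nfatc2 and Nfatc4. Rcan2 averaged 72.2 ± 7.80 FPKM in CsA, 63.3 ± 7.41 in VO and 77.0 ± 5.28 in Sham (SD, n = 3 each), and Nfatc4 averaged 1.26 ± 0.200, 1.07 ± 0.124 and 1.66 ± 0.127 FPKM in CsA, VO and Sham. Neighbours in this order overlapped between libraries for Nfatc3 and Nfatc1 in VO and Sham, for Ppp3r1 and Rcan1 in VO, and for Nfatc2 and Nfatc4 in CsA. All 10 genes passed the filter of a mean of at least 0.5 FPKM, and the thinnest was Nfatc4, with 81 to 136 fragments per library. An exact Poisson interval on the lowest of these counts ran from 64.3 to 100.7 fragments, which covers counting error only.

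**Figure D1:**
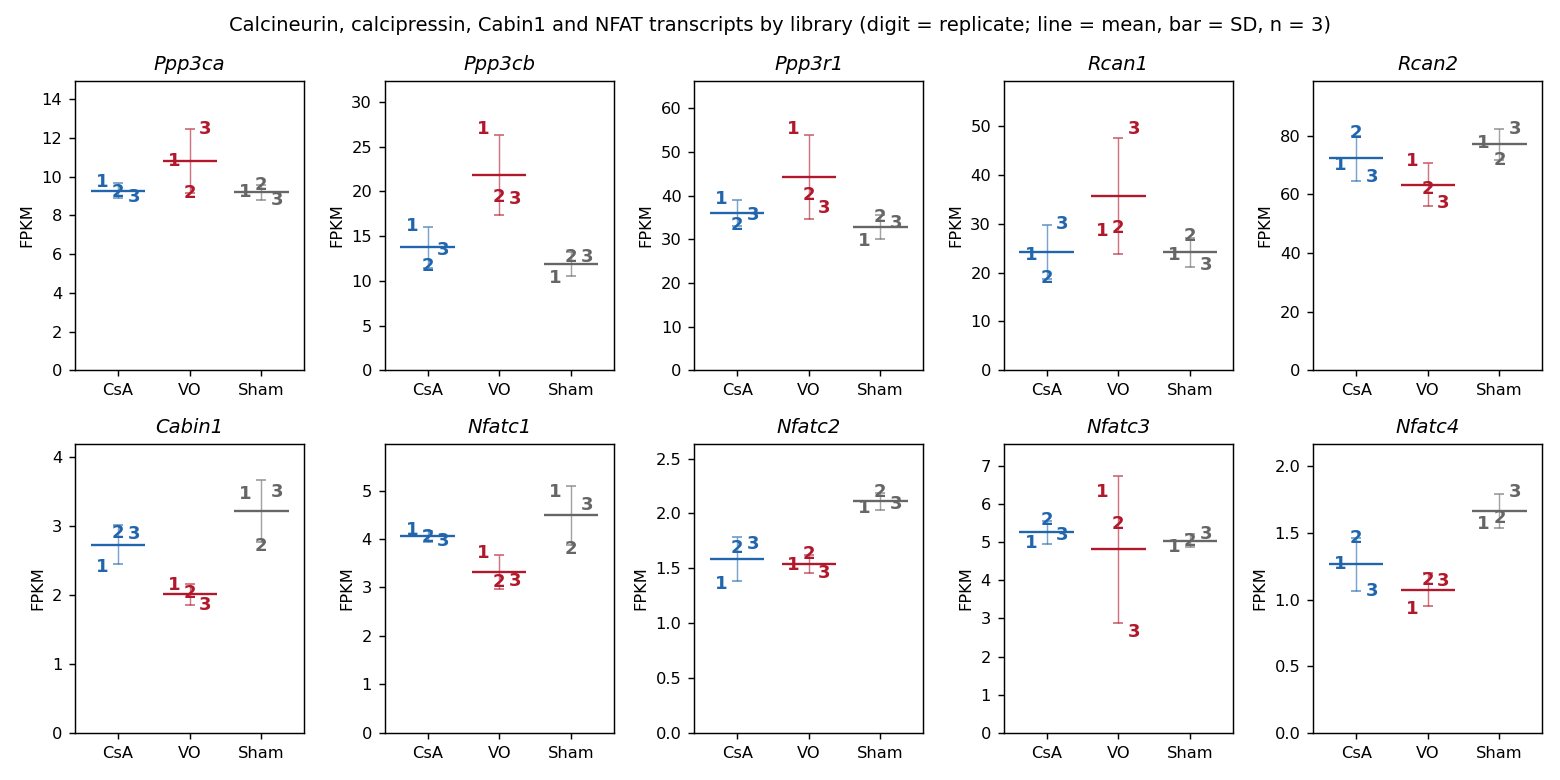
FPKM of the 10 genes (1 panel each, y axis from 0) in CsA, VO and Sham, with digits for the replicate libraries, lines for the group means and bars for the SD (n = 3). Ppp3cb lies between 19.1 and 27.0 FPKM in VO and between 10.3 and 12.7 in Sham, and Rcan1 is highest in VO 3 at 49.4 FPKM.

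VO against Sham asks how the pathway's transcripts stood under volume overload. Ppp3cb, which encodes the beta catalytic subunit, rose in VO, and it was the only one of the 10 genes past the test. By limma with Benjamini-Hochberg adjustment over the 13477 tested genes, 4.76% of all genes passed at an adjusted p under 0.05, 2.04% as higher and 2.72% as lower. Of the 10 genes, 8 had VO and Sham libraries that did not overlap, against 33.1% of all genes tested: Ppp3cb, Ppp3r1 and Rcan1 lay above Sham (3 genes, against 16.2% of all genes) and Rcan2, Cabin1, Nfatc1, Nfatc2 and Nfatc4 below it (5 genes, against 17.0%). At an unadjusted p under 0.05 the count was 6 of 10, against 29.3% of all genes. The median log2 fold change of the 10 genes was -0.20, beside 0.00 over all genes tested.

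Ppp3cb (ENSMUSG00000021816, GRCm38 chromosome 14, 20499364 to 20546573, minus strand) had 16.1, 11.6 and 13.5 FPKM in the CsA libraries, 27.0, 19.4 and 19.1 in the VO libraries and 10.3, 12.6 and 12.7 in the Sham libraries. Every VO library lay above every other library, and CsA overlapped with Sham. On the scale of log2(FPKM + 1), the fold change was 0.81 ± 0.183 (SE; 95% interval 0.40 to 1.22) in VO against Sham, with a limma adjusted p of 0.0419. Its start window is shown because Ppp3cb carries the call. It lies at chr14:20546524-20546823 on the minus strand and is written 5′ to 3′ with the same cores in capitals.
Ppp3cb start: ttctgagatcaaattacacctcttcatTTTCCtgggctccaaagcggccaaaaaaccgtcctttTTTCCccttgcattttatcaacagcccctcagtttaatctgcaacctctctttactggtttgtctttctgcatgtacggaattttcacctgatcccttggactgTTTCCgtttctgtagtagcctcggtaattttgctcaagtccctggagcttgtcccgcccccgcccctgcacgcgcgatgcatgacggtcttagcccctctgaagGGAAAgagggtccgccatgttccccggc
The window held 4 cores, 1 as GGAAA and 3 as TTTCC, a number that 2.65% of all windows reach. Of the windows not printed, those of Nfatc2 held 3 and 1, that of Nfatc4 held 3 and those of Rcan2 held 2, 0 and 0. Those of Nfatc3 held 1 and 0, and those of Ppp3r1 and Cabin1 held 0. Nfatc2, Nfatc4 and Rcan2 lay lower in VO than in Sham, as did Cabin1, and Ppp3r1 lay higher. The call of Ppp3cb did not hold after a correction for GC content (log2 0.49 ± 0.127, limma adjusted p = 0.102), where 0 of all tested genes passed. It was lost without CsA 1 (adjusted p = 0.0608), CsA 3 (0.0745), VO 1 (log2 0.66, 0.0925), Sham 1 (0.72, 0.191), Sham 2 (0.85, 0.0674) or Sham 3 (0.86, 0.147). In these left-out fits 0 of all genes passed, apart from 1 without Sham 1 and 69 without Sham 2, which did not include Ppp3cb. Over all alternatives run the log2 fold change stayed between 0.48 and 0.96 and the limma adjusted p between 0.0325 and 0.975.

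Ppp3ca (ENSMUSG00000028161, chromosome 3, 136670124 to 136937727, plus strand), which encodes the alpha catalytic subunit, had 9.72, 9.20 and 8.94 FPKM in the CsA libraries, 10.8, 9.13 and 12.5 in the VO libraries and 9.19, 9.57 and 8.81 in the Sham libraries. The 3 groups overlapped, and VO 3 was the highest library. VO against Sham gave a log2 fold change of 0.20 ± 0.139, with a limma adjusted p of 0.354. It was 0.06 ± 0.133 after GC correction, 0.10 without VO 3 and 0.31 without VO 2. Ppp3r1 (ENSMUSG00000033953, chromosome 11, 17159263 to 17200375, plus strand), which encodes the regulatory B subunit, had 39.2, 33.3 and 35.5 FPKM in the CsA libraries, 55.2, 40.2 and 37.3 in the VO libraries and 29.7, 35.0 and 33.7 in the Sham libraries. All VO libraries lay above all Sham libraries, though VO 3 only just above Sham 2, and VO 1 was far above the rest. In VO against Sham, Ppp3r1 had a log2 fold change of 0.40 ± 0.177 (95% interval 0.01 to 0.80, limma adjusted p = 0.166), which was 0.12 ± 0.124 after GC correction and 0.23 ± 0.150 without VO 1. Without VO 3 it was 0.51 ± 0.160 (limma adjusted p = 0.0601), and 0.16 ± 0.107 with GC correction as well. Ppp3r1 overlaps Wdr92 on the same strand, which averaged 5.24 FPKM, so fragments in the overlap may belong to either gene.

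As deposited, Ppp3cb took a larger share of the catalytic genes in VO, which was not tested or corrected for GC content. GC content was 39.8% for Ppp3cb, 45.4% for Ppp3ca and 46.0% for Ppp3cc. The ratio of Ppp3cb to Ppp3ca in VO 3 (1.53) lay within the CsA range (1.26 to 1.66). Ppp3cb made up 48.0%, 40.5% and 46.0% of the summed FPKM of Ppp3ca, Ppp3cb and Ppp3cc, the gamma catalytic gene, in the CsA libraries, 61.7%, 53.1% and 50.3% in the VO libraries and 37.4%, 42.5% and 42.0% in the Sham libraries. VO did not overlap with either other group in this share, and Ppp3cb was the most abundant of the 3 genes in every library. The summed catalytic FPKM was 30.5 ± 2.65 in CsA, 39.4 ± 3.81 in VO and 29.2 ± 1.38 in Sham (SD, n = 3 each). The B subunit gene stood at 1.18 ± 0.0259 times the catalytic sum in CsA, 1.12 ± 0.142 in VO and 1.12 ± 0.0533 in Sham, so its level relative to the catalytic genes differed by less than the spread between VO libraries.

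**Figure D2:**
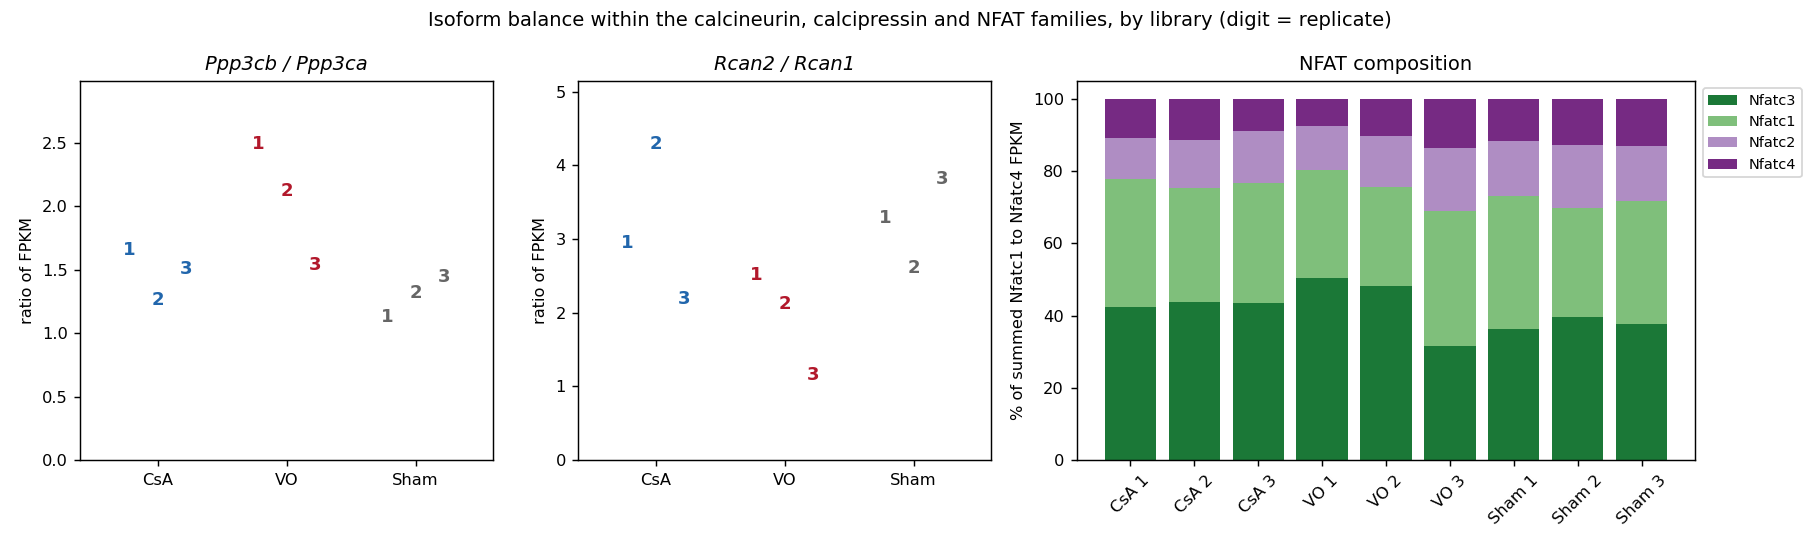
The first 2 panels give the ratio of FPKM of Ppp3cb to Ppp3ca and of Rcan2 to Rcan1 in each library (digits are replicates, y axes from 0), and the stacked bars give the share of each Nfatc gene in the summed Nfatc1 to Nfatc4 FPKM. The ratio of Ppp3cb to Ppp3ca is 1.26 to 1.66 in CsA, 1.53 to 2.49 in VO and 1.12 to 1.44 in Sham, and VO 3 has the lowest Nfatc3 share at 31.5%.

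Rcan1 and Rcan2 encode calcipressins, small proteins that bind calcineurin and inhibit it. Rcan1 (ENSMUSG00000022951, chromosome 16, 92391953 to 92470867, minus strand) had 23.7, 18.9 and 30.0 FPKM in the CsA libraries, 28.5, 29.2 and 49.4 in the VO libraries and 23.6, 27.4 and 21.5 in the Sham libraries. The VO libraries lay above all Sham libraries but overlapped with CsA 3, and VO 3 stood far above the other VO libraries. VO against Sham gave 0.50 ± 0.244 on the log2 scale (95% interval -0.04 to 1.05, limma adjusted p = 0.2), and 0.72 ± 0.217 after GC correction (adjusted p = 0.129). Without VO 3 it was 0.25 ± 0.190, and 0.54 ± 0.199 after GC correction without VO 3 (adjusted p = 0.149). The whole-gene value did not pass the test in any setting run, with adjusted p between 0.129 and 0.975.

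Rcan2 (ENSMUSG00000039601, chromosome 17, 43801351 to 44039516, plus strand) had 69.9, 80.9 and 65.8 FPKM in the CsA libraries, 71.4, 61.7 and 56.8 in the VO libraries and 77.3, 71.6 and 82.1 in the Sham libraries. The highest VO library, VO 1, lay just under the lowest Sham library, Sham 2, and CsA overlapped with both groups. Its log2 fold change in VO against Sham was -0.28 ± 0.160 (limma adjusted p = 0.265), and -0.41 ± 0.149 after GC correction (adjusted p = 0.164). Rcan2 exceeded Rcan1 in every library, by 3.14 ± 1.06 times in CsA, 1.92 ± 0.697 in VO and 3.23 ± 0.602 in Sham (SD, n = 3 each). The lowest ratio, 1.15, was in VO 3. The summed level of both genes was 96.4 ± 3.13 FPKM in CsA, 99.0 ± 7.70 in VO and 101.2 ± 2.35 in Sham, a difference within the spread between libraries.

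Cabin1 (ENSMUSG00000020196, chromosome 10, 75646112 to 75764341, minus strand) encodes a protein that binds and inhibits calcineurin and also represses MEF2. It had 2.40, 2.89 and 2.88 FPKM in the CsA libraries, 2.15, 2.03 and 1.85 in the VO libraries and 3.46, 2.70 and 3.49 in the Sham libraries. Every VO library lay below every CsA and Sham library. The log2 fold change in VO against Sham was -0.48 ± 0.134 (95% interval -0.78 to -0.18), with a limma adjusted p of 0.0605 that just missed the threshold. It was -0.19 ± 0.148 after GC correction, and -0.07 ± 0.125 when VO 3 was also left out. Without the 3 Myl7-rich libraries (CsA 3, Sham 1 and Sham 3), where Sham 2 alone stands for Sham, it was -0.30. Over all alternatives run it lay between -0.65 and -0.07.

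The 4 NFAT genes encode the calcium-regulated family members, with Nfatc1 best known in the heart for endocardium and valve formation and Nfatc3 and Nfatc4 for hypertrophy in mouse cardiomyocytes. Nfatc1 (ENSMUSG00000033016, chromosome 18, 80606205 to 80713071, minus strand) had 4.18, 4.04 and 3.96 FPKM in the CsA libraries, 3.71, 3.11 and 3.14 in the VO libraries and 4.97, 3.80 and 4.69 in the Sham libraries. Its VO libraries lay below all CsA and all Sham libraries, and its log2 fold change in VO against Sham was -0.34 ± 0.133 (limma adjusted p = 0.125), and -0.16 ± 0.151 after GC correction. It was -0.16 without the 3 Myl7-rich libraries (CsA 3, Sham 1 and Sham 3), where Sham 2 alone stands for Sham. Over all alternatives run it lay between -0.44 and -0.06. The 6 endothelial and endocardial markers summed to 227 to 274 FPKM in CsA, 151 to 171 in VO and 218 to 261 in Sham. In VO against Sham 5 of 6 lay below 0 and 2 passed the test, beside 4.76% of all genes. This lean was not theirs alone: 5 of 6 ventricular, 5 of 5 atrial and 4 of 4 tested smooth muscle and pericyte markers also lay below 0. Of the fibroblast markers 2 lay below 0 and 2 above, and of the erythroid markers 1 below and 4 above. Whether endothelial and endocardial cells had a part in the Nfatc1 values was not tested.

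Nfatc2 (ENSMUSG00000027544, chromosome 2, 168476410 to 168601657, minus strand), a factor best known in T cells, had 1.36, 1.68 and 1.72 FPKM in the CsA libraries, 1.53, 1.63 and 1.46 in the VO libraries and 2.05, 2.20 and 2.09 in the Sham libraries. Both fistula groups lay wholly below Sham and overlapped with each other. In VO against Sham, Nfatc2 stood at -0.29 ± 0.122 on the log2 scale (limma adjusted p = 0.147), and -0.05 ± 0.132 after GC correction. The 5 T cell markers were low throughout, with summed levels of 0.291 to 1.84 FPKM in CsA, 0.317 to 1.31 in VO and 1.09 to 1.63 in Sham, and 1 of them passed the filter on low values. Their part in the Nfatc2 values was not tested.

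Nfatc4 (ENSMUSG00000023411, chromosome 14, 55823144 to 55833943, plus strand) had 1.27, 1.46 and 1.06 FPKM in the CsA libraries, 0.929, 1.15 and 1.14 in the VO libraries and 1.57, 1.61 and 1.81 in the Sham libraries. As for Nfatc2, every CsA and every VO library lay below every Sham library. For Nfatc4, the log2 fold change in VO against Sham was -0.36 ± 0.131 (limma adjusted p = 0.108), and after GC correction it was 0.03 ± 0.132, with the sign turned. Adding 1 to FPKM understates the change of so low a gene, and voom on recovered fragments gave -0.55 ± 0.214 (adjusted p = 0.116 by voom). Whether the turned sign depends on this scale was not tested.

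Nfatc3 (ENSMUSG00000031902, chromosome 8, 106058840 to 106130537, plus strand) had 4.98, 5.58 and 5.18 FPKM in the CsA libraries, 6.31, 5.47 and 2.64 in the VO libraries and 4.88, 5.02 and 5.21 in the Sham libraries. VO 1 and VO 2 lay above every Sham library and VO 3 far below all others. The log2 fold change in VO against Sham was -0.12 ± 0.230 (limma adjusted p = 0.773) with all libraries and 0.19 ± 0.110 without VO 3, so 1 library set its sign. Nfatc3 led the NFAT genes in 7 of the 9 libraries, with Nfatc1 ahead of it in VO 3 and Sham 1. Its share of the summed NFAT level was 43.2% ± 0.793 in CsA, 43.4% ± 10.4 in VO and 37.9% ± 1.77 in Sham (SD, n = 3 each). The summed NFAT level was 12.2 ± 0.528 FPKM in CsA, 10.7 ± 2.12 in VO and 13.3 ± 0.602 in Sham.

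The fold changes in VO against Sham ran with base composition for 7 of the 10 genes: Ppp3cb, Ppp3r1 and Ppp3ca, above 0, were poor in G and C, and Nfatc1, Nfatc2, Cabin1 and Nfatc4, below 0, were rich in them. GC content was 39.8% for Ppp3cb, 41.4% for Ppp3r1, 45.4% for Ppp3ca and 45.9% for Rcan2 and Nfatc3, and it was 53.7% for Nfatc1, 54.5% for Rcan1, 55.3% for Nfatc2, 56.6% for Cabin1 and 58.8% for Nfatc4. Rcan1 (above 0) and Rcan2 and Nfatc3 (below 0) did not follow this order. After a correction that removes each library's GC trend, the median log2 fold change of the 10 genes in VO against Sham was -0.01. The values nearest to 0 were then those of Nfatc4, Nfatc2 and Ppp3ca, and Rcan1 (0.72), Ppp3cb (0.49) and Rcan2 (-0.41) were the farthest from it. No gene of the 10 passed the test after the correction, and 0 of 13465 tested genes did so in the whole table, where 2859 genes had an unadjusted p under 0.05.

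**Figure D3:**
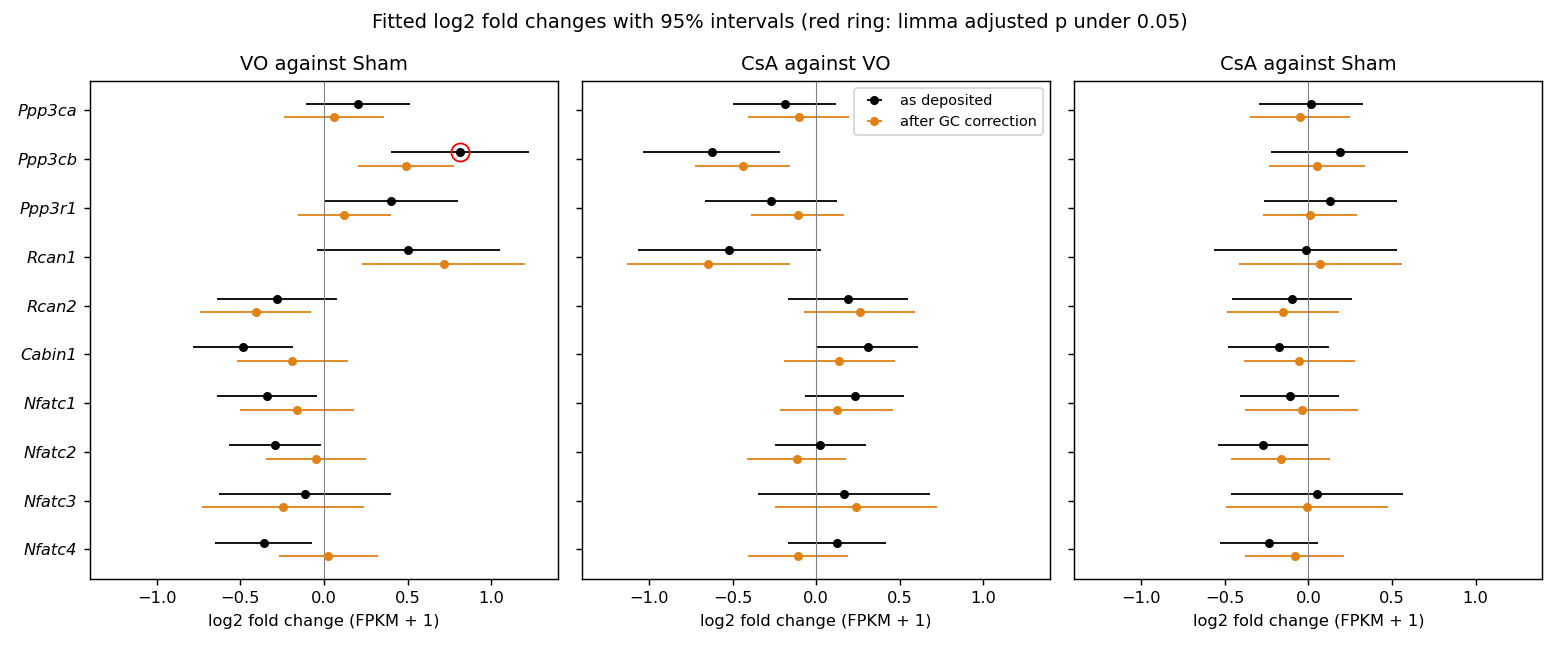
Log2 fold change on FPKM + 1 (x axis) of the 10 genes (rows) in each comparison, with 95% intervals, as deposited (black) and after GC correction (orange). A red ring marks an adjusted p under 0.05, which Ppp3cb in VO against Sham (0.81) reached, and the intervals of Rcan1 and Rcan2 in that comparison lie farther from 0 after the correction.

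CsA against VO asks how these transcripts stood with the drug under the same operation. No gene of the 10 passed the test, and 0.00% of all genes did, by limma as well as by voom on recovered fragments. At an unadjusted p under 0.05, 2 of the 10 genes were counted, against 16.5% of all genes: Ppp3cb, with a log2 fold change of -0.62 ± 0.183 (95% interval -1.03 to -0.21, limma adjusted p = 0.218), and Cabin1, with 0.31 ± 0.134 (0.01 to 0.61, 0.296). The libraries of 3 genes did not overlap, against 21.2% of all genes, with Ppp3cb lower in CsA and Cabin1 and Nfatc1 higher. After GC correction the log2 fold change of Ppp3cb was -0.44 ± 0.127 (adjusted p = 0.264), that of Cabin1 was 0.14 ± 0.148 (0.688) and that of Nfatc1 was 0.12 ± 0.151 (0.725).

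Rcan1 was at 24.2 ± 5.61 FPKM in CsA and 35.7 ± 11.9 FPKM in VO (SD, n = 3 each). Its log2 fold change in CsA against VO was -0.52 ± 0.244 (95% interval -1.07 to 0.03, limma adjusted p = 0.32), and -0.27 ± 0.190 without VO 3. After GC correction Rcan1 was at -0.64 ± 0.217 (adjusted p = 0.292) with all libraries and at -0.47 ± 0.199 (0.281) without VO 3. The values of the other 7 genes in this comparison were -0.27 for Ppp3r1, -0.19 for Ppp3ca, 0.02 for Nfatc2, 0.13 for Nfatc4, 0.17 for Nfatc3, 0.19 for Rcan2 and 0.23 for Nfatc1. Both Ppp3r1 and Ppp3ca were at -0.11 after GC correction. The values of Nfatc2 (-0.12) and Nfatc4 (-0.11) took the other sign after GC correction, and that of Nfatc3 (-0.14) without VO 3. The median over the 10 genes was 0.08, beside 0.00 over all genes.

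CsA against Sham sets the mice with fistula and drug against those with neither. No gene of the 10 passed the test, and neither did any of the 13477 genes (0.00%), by limma or by voom, with 0 of the 10 genes and 1.48% of all genes at an unadjusted p under 0.05. Nfatc2 and Nfatc4 were the 2 genes whose libraries did not overlap, against 9.74% of all genes (4.80% higher and 4.94% lower in CsA), both lower in CsA, with log2 fold changes of -0.27 ± 0.122 (95% interval -0.54 to 0.00) and -0.24 ± 0.131 (-0.53 to 0.06). After GC correction these were -0.17 ± 0.132 for Nfatc2 and -0.08 ± 0.132 for Nfatc4. Ppp3cb was at 13.7 ± 2.27 FPKM in CsA and 11.9 ± 1.35 in Sham, with a log2 fold change of 0.19 (95% interval -0.22 to 0.60). Rcan1 was at 24.2 ± 5.61 FPKM in CsA and 24.2 ± 2.98 in Sham, with an interval of -0.56 to 0.53. The limma adjusted p was 1 for each of the 10 genes, which does not show that CsA and Sham were alike.

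The CsA mean on the log2 scale lay between the VO and Sham means for 8 of the 10 genes, with Rcan1 and Nfatc3 the exceptions, against 63.4% of all genes tested. In FPKM the count was 9, against 63.7%, with Rcan1 added by a CsA mean just above that of Sham. After GC correction it was 7, against 56.7% of all genes, with Ppp3ca, Nfatc2 and Nfatc4 the exceptions. The VO libraries enter both VO against Sham and CsA against VO, so opposite signs in these comparisons are not independent. Side by side, the log2 fold changes in CsA against VO and in VO against Sham were -0.62 and 0.81 for Ppp3cb, -0.52 and 0.50 for Rcan1, 0.31 and -0.48 for Cabin1 and 0.23 and -0.34 for Nfatc1.

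Of 61 other genes of the pathway, 57 passed the filter on low values, and in VO against Sham 1 passed the test as higher and 1 as lower, 2 of 57 beside 4.76% of all genes tested. Ppid, which encodes a cyclophilin that works with the chaperone HSP90, had 8.42, 7.20 and 7.96 FPKM in the CsA libraries, 12.2, 11.3 and 10.7 in the VO libraries and 5.87, 7.74 and 5.91 in the Sham libraries. It rose in VO, with every VO library above all others and a log2 fold change of 0.73 ± 0.143, at an adjusted p of 0.0391 by limma. Dyrk1b, from the DYRK kinase family whose members phosphorylate NFAT, had 5.10, 8.13 and 7.04 FPKM in the CsA libraries, 1.77, 3.19 and 1.94 in the VO libraries and 9.72, 8.22 and 9.28 in the Sham libraries. It fell in VO, with every VO library below all others and a log2 fold change of -1.63 ± 0.201, at an adjusted p of 0.0347 by limma. After GC correction the values were 0.45 for Ppid and -1.07 for Dyrk1b, and neither passed. Without VO 3 the count over the 57 genes was 10, beside 2032 of all 13477 genes tested.

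The other lists held no gene past the test in VO against Sham, and their leading values are given by role. Calm2, a calmodulin gene that encodes the calcium sensor of calcineurin, was at 0.69 (limma adjusted p = 0.0621). Of the 6 immunophilin genes, which include the targets of cyclosporin A, 5 lay above 0, and Ppia, the gene of the main cyclosporin receptor cyclophilin A, averaged 32.8 ± 6.25 FPKM in CsA, 65.7 ± 20.3 in VO and 32.5 ± 10.4 in Sham, and VO against Sham gave 0.99 ± 0.283 on the log2 scale (0.0646). Of the 11 NFAT kinase genes, 7 lay above 0 and 4 below, and after Dyrk1b the leading one was Csnk1e, a casein kinase gene, at -0.50 (0.0502). Csnk1a1, another casein kinase gene, came next and lay on the other side of 0, at 0.55 ± 0.145 (limma adjusted p = 0.0563). Its level was the higher of the pair, at 50.1 ± 4.64 FPKM in VO and 33.9 ± 1.23 in Sham.

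Of the 10 tested inhibitor and anchor genes, 4 lay above 0 and 6 below, led by Fbxo32 (-0.96, limma adjusted p = 0.0535), the gene of the ubiquitin ligase atrogin-1, and Akap1 (-0.33, 0.161), a mitochondrial anchor gene. Of the 10 calcium entry and release genes, 4 lay above 0 and 6 below, led by Stim1 (-0.58, 0.0727), the calcium sensor of the reticulum, and the T-type channel gene Cacna1h (-0.64, 0.0952). Of the 8 NFAT partner genes, 3 lay above 0 and 5 below, led by Gata4 (-0.90, 0.0511) and Mef2d (-1.11, 0.052), both cardiac transcription factor genes. Of the 8 tested cardiac genes tied to calcineurin and NFAT, 4 lay on each side of 0, led by the myoglobin gene Mb (-1.13, 0.0772) and the slow skeletal troponin I gene Tnni1 (1.84, 0.0866). The remaining catalytic gene Ppp3cc was at 7.50 ± 0.509 FPKM in CsA, 6.77 ± 1.06 in VO and 8.13 ± 0.611 in Sham (log2 fold change in VO against Sham -0.24, adjusted p = 0.284). After GC correction, the values that moved by over 1.5 times were those of Calm2 (0.45), Csnk1e (-0.22), Csnk1a1 (0.32), Akap1 (-0.18), Stim1 (-0.37), Cacna1h (-0.20), Gata4 (-0.58) and Ppp3cc (-0.36).

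**Figure D4:**
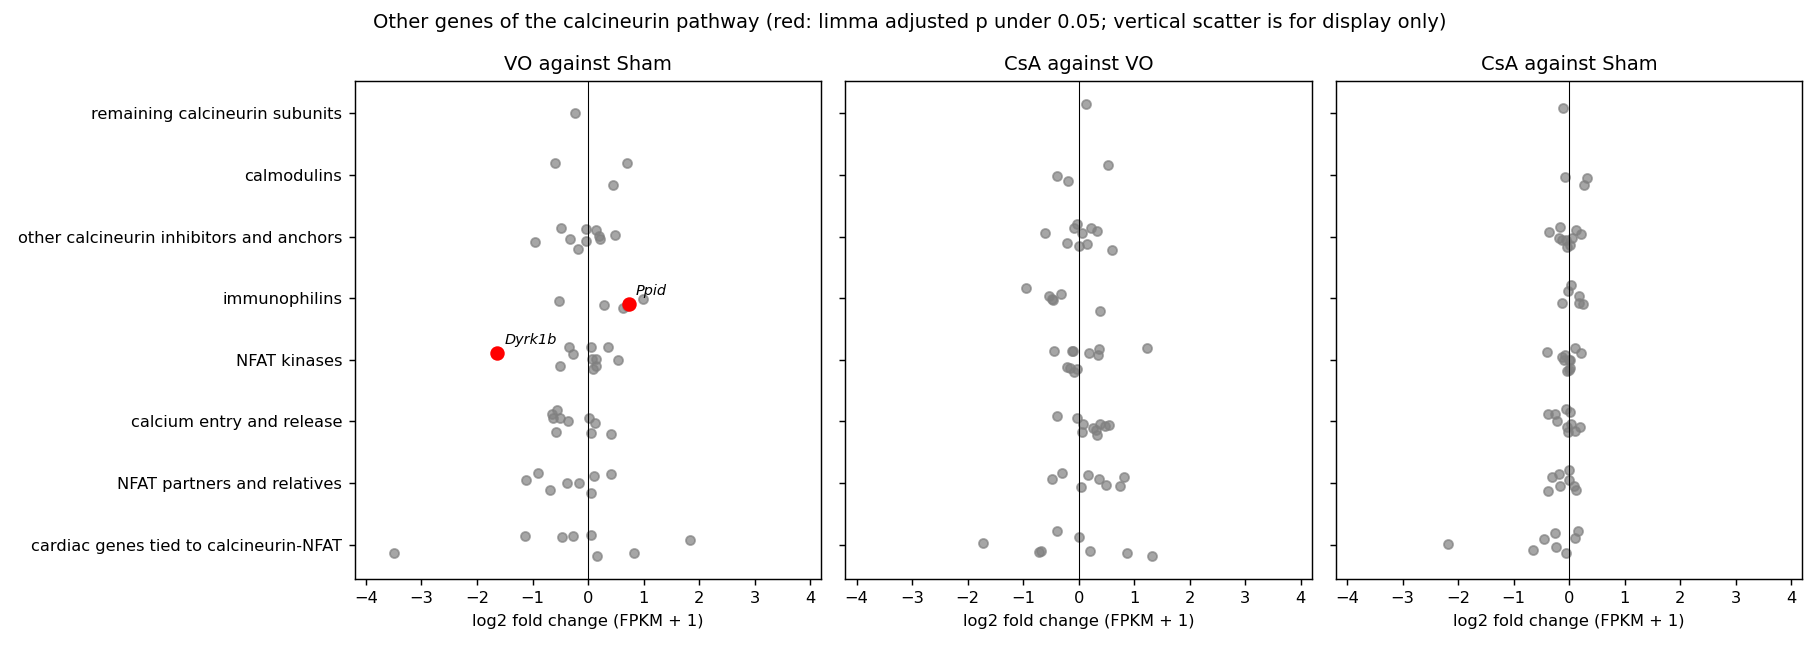
Log2 fold change on FPKM + 1 (x axis) of the 57 tested genes of the other pathway lists (rows, 1 point per gene) in each comparison, with red for an adjusted p under 0.05. In VO against Sham, Ppid (0.73) and Dyrk1b (-1.63) are past the test, and the other panels hold no red point.

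In CsA against VO, 0 of the 57 genes passed the test by limma or by voom and 16 had an unadjusted p under 0.05 by limma, beside 16.5% of all genes tested, with 31 above 0 and 26 below. Dyrk1b was at 6.76 ± 1.53 FPKM in CsA and 2.30 ± 0.778 in VO (SD, n = 3 each), which is 1.24 ± 0.201 on the log2 scale (adjusted p = 0.204 by limma). Ppid was at 7.86 ± 0.618 FPKM in CsA and 11.4 ± 0.756 in VO (-0.48 ± 0.143, adjusted p = 0.218), and Ppia stood at -0.95 ± 0.283 (0.219). Stim1 (0.55, 0.22), Gata4 (0.74, 0.219), Mef2d (0.81, 0.237), Fbxo32 (0.61, 0.272) and Calm3 (0.53, 0.271) were among the leading genes of their lists, and Calm3 was at 0.31 after GC correction. In CsA against Sham, 0 of the 57 genes passed by limma or by voom and 1 had an unadjusted p under 0.05 by limma, beside 1.48% of all genes tested, with 24 above 0 and 33 below.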

How the data were processed

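Values are FPKM per gene and library, as deposited by the authors. The submitters' processing notes name the builds mm10 and GRCm38 and, without saying what each did, the tools featureCounts 1.5.0-p3, HISAT2 2.0.5, DESeq2 1.20.0, StringTie 1.3.3b and GATK 3.7. The annotation release and the use of strand are not given in the sources used here. The deposited table also holds a length per gene, in bases, which was used with FPKM to recover fragments: 100% of values were within 0.1 of a whole fragment.

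Genes whose mean reached 0.5 FPKM (13477 of 54532) were tested on log2(FPKM + 1), which understates the change of low genes. All 9 libraries entered 1 fit in limma 3.58.1 (R 4.3.3) with a mean-variance trend and no covariate, two-sided, with Benjamini-Hochberg adjustment at 0.05 over all tested genes in each comparison. The GC correction removed each library's loess trend (span 0.3, degree 1) on the GC content of the longest GENCODE M21 transcript. Named genes were all 10 members, the pathway genes past the test or, without one, up to 2 with the smallest p per list, of which some are not printed, and the 5 genes most like Rcan1. Ppia, Csnk1e and Csnk1a1 in VO against Sham were named beyond this rule, after their values were seen. Members and lists were chosen with earlier results of these data known. Alternatives covered pseudocounts of 0.1 and 0.5, filters, scalings, the fit, voom on recovered fragments, a replicate block and each library left out. The steps were tested on simulated data. Plots used matplotlib 3.10.9 (Python 3.11.15).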

Additional observations from a re-analysis of the deposited data

How the results depend on the processing

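The count of the 10 genes past the test in VO against Sham (1) was 0 with no filter on low values, after rescaling without mitochondrially encoded genes, after GC correction with or without VO 3, with only the groups compared, and in the absence of the 3 Myl7-rich libraries (CsA 3, Sham 1 and Sham 3), and it was 0 to 1 when 1 library was left out (0 without CsA 1, CsA 3, VO 1, Sham 1, Sham 2 or Sham 3). GC correction without VO 3 was chosen after seeing the data. The count of other pathway genes past the test (2) was 0 with no filter, after GC correction with or without VO 3 and with only the groups compared. It was 6 with a mean of at least 1 FPKM, beside 868 of all 11756 genes then tested. It was 5 after quantile normalization, 4 after the mitochondrial rescaling, 7 with library weights and 8 with voom. Beside these stood 934, 755, 874 and 1010 of all 13477 genes. Leaving out 1 library gave 0 to 10, and 0 without CsA 1, CsA 3, VO 1, Sham 1 or Sham 3. The count was 10 without VO 3 (2032 over all genes), 4 without VO 2 (793) and 1 without Sham 2 (69). Apart from GC correction and left-out libraries, the cause was not tested. In both comparisons with CsA the count of the 10 genes stayed at 0 in all alternatives run.

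Of the fold changes of the 10 genes, 42 alternative values took the other sign and none of these passed the test. In VO against Sham these were Nfatc3 at 0.081 with library weights, 0.19 without VO 3 (-0.31 to 0.19 over the left-out libraries) and 0.041 with GC correction without VO 3, Nfatc4 at 0.026 after GC correction and 0.085 when VO 3 was also left out, and Ppp3ca at -0.068 and Nfatc2 at 0.054 in that last setting. In CsA against VO they were Ppp3ca at 0.019 with GC correction without VO 3, Nfatc3 at -0.029 with library weights, -0.14 without VO 3 (-0.14 to 0.36 over the left-out libraries) and -0.046 with GC correction and VO 3 left out, Nfatc4 at -0.11 after GC correction and -0.17 with VO 3 left out too, and Nfatc2 at -0.014 after quantile normalization and without the 3 Myl7-rich libraries, -0.12 after GC correction, -0.22 when VO 3 was also left out, -0.0010 with library weights, -0.055 with voom and -0.014 to 0.090 over the left-out libraries. In CsA against Sham they were Ppp3ca at -0.048 after GC correction, -0.015 without the 3 Myl7-rich libraries and -0.016 to 0.041 over the left-out libraries, Rcan1 at 0.017 after the mitochondrial rescaling, 0.072 after GC correction, 0.099 with library weights and -0.18 to 0.14 over the left-out libraries, Rcan2 at 0.069 and Nfatc1 at 0.089 without the 3 Myl7-rich libraries, and Nfatc3 at -0.0054 after GC correction. Over all genes, the calls in VO against Sham split into 275 higher and 367 lower, against 214 and 541 after the mitochondrial rescaling and 605 and 405 with voom. Nfatc4 rests on 81 to 136 fragments per library, the least depth of the 10 genes.

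Deviations from the group means were no more alike in same-numbered libraries than in other pairs. They correlated between -0.40 and 0.24 over 9 same-numbered pairs and between -0.19 and 0.27 over 18 other pairs. This check cannot exclude a pairing by replicate number, because the deviations add up to 0 within each group. With a replicate block, 0 of the 10 genes and 0 of the other pathway genes passed in VO against Sham, beside 1 of all 13477 genes. The fold change of Ppp3cb stayed at 0.81 there, with a limma adjusted p of 0.0849. The block with GC correction also gave 0 and 0, beside 0 of all genes. The block with GC correction kept the sign changes of GC correction alone: Nfatc4 at 0.026 in VO against Sham, Nfatc4 at -0.11 and Nfatc2 at -0.12 in CsA against VO, and Ppp3ca at -0.048, Rcan1 at 0.072 and Nfatc3 at -0.0054 in CsA against Sham.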

Other observations

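The 5 protein-coding genes whose pattern over the 9 libraries was nearest to that of Rcan1 were Tpm3, Fkbp11, 2010111I01Rik, Arfip1 and Cct3. Likeness was the mean absolute difference between log2(FPKM + 1) values centred on each gene's mean, and it was 0.07 for Tpm3, 0.07 for Fkbp11, 0.08 for 2010111I01Rik, 0.08 for Arfip1 and 0.09 for Cct3, against a median of 0.32 over the 11792 genes compared. Fkbp11 was low, from 0.257 FPKM in Sham 3 to 2.23 in VO 3. Adding 1 understates the changes of so low a gene, so its likeness to Rcan1 holds on this scale only. Tpm3, a tropomyosin gene, had 16.3, 13.1 and 19.3 FPKM in the CsA libraries, 17.9, 20.8 and 31.5 in the VO libraries and 15.2, 15.8 and 13.7 in the Sham libraries. Cct3, which encodes a subunit of the chaperonin that folds actin and tubulin, had 15.8, 13.0 and 17.4 FPKM in the CsA libraries, 17.0, 19.2 and 26.2 in the VO libraries and 14.3, 16.7 and 13.4 in the Sham libraries. All 5 genes were highest in VO 3, as Rcan1 was, which follows from their choice by likeness to Rcan1.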
